A study of Mus musculus with 25 samples.

Results

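The oldest mice of an age series of mouse blood, at 24 and 30 months, were compared with its mice of intermediate age, at 9 and 15 months. Of the 25 small RNA libraries in the series, 20 entered the comparison, 10 labelled 24 or 30 months (the older libraries) and 10 labelled 9 or 15 months (the younger libraries). Libraries were chosen by the age that begins their column name, and the 5 libraries of 2 months were left out. All 4 ages were male mice of the inbred C57BL/6 strain, the tissue was blood, and the labels name no treatment or altered allele. Each age had 5 libraries, made with the TruSeq small RNA kit. Each library has a number of its own in its title, but no label states that each came from a separate animal, so p-values measure the spread between these libraries.

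MicroRNAs are short RNAs cut from hairpin precursors. One strand of the cut duplex is loaded into an Argonaute protein and pairs with messenger RNAs mainly through its seed, bases 2 to 8 from the 5′ end, which lowers the output of those messages. In blood, mir-451a, mir-144 and mir-486 are best known from red cells, mir-223 from neutrophils and monocytes, and mir-150 from lymphocytes. The table gives 1 count per hairpin and library and does not say which arm the reads came from. In bulk blood, fewer cells of a type and less RNA per cell cannot be told apart.

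Of 1193 hairpins in the table, 291 passed the filter on low counts and were tested. Of these, 10 differed between the pools at an adjusted p under 0.05, 8 of them higher and 2 lower at 24 and 30 months, by edgeR's quasi-likelihood test. They made up 3.44% of the tested hairpins, 2.75% higher and 0.687% lower. The mature sequences of 9 of the 10 are shown because each names the seed, and so the set of possible targets, of a hairpin whose level differed. They come from RefSeq on GRCm38.p6, which held entries for 246 of the 291 tested hairpins. The better known arm is printed 5′ to 3′, with the seed in capitals.
miR-203-3p (chr12:112130927-112130948, plus strand): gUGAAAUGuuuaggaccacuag
miR-223-3p (chrX:96242884-96242905, plus strand): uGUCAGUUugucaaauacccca
miR-23a-3p (chr8:84208563-84208583, plus strand): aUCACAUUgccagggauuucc
miR-322-5p (chrX:53054306-53054327, minus strand): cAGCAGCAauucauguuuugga
miR-335-5p (chr6:30741314-30741336, plus strand): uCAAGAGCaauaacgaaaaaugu
miR-879-5p (chr5:9375714-9375734, plus strand): aGAGGCUUauagcucuaagcc
miR-3065-5p (chr11:120014780-120014801, plus strand): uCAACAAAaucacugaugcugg
miR-296-5p (chr2:174267093-174267113, minus strand): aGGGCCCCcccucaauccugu
miR-205-5p (chr1:193507503-193507524, minus strand): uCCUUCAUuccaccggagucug

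Hairpin mir-28a was also higher. No 2 of the sequences above share a seed. The seed of miR-322-5p is that of the mir-15/16 family, as the line of miR-16-5p shows, and among the tested hairpins with a RefSeq entry 5 others carry it.
miR-16-5p (mir-16-1, chr14:61631936-61631957, minus strand): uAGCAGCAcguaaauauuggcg

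Those 5 hairpins did not pass the test. Hairpin mir-15b had a log2 change of 0.21 ± 0.13 (SE), mir-16-1 of -0.20 ± 0.21, mir-16-2 of -0.20 ± 0.21, mir-195a of -0.23 ± 0.13 and mir-497a of -0.16 ± 0.14 (edgeR, adjusted p from 0.317 to 0.655). Copies such as mir-16-1 and mir-16-2 held near-identical counts, so reads of one cannot be assigned to either hairpin. Family member mir-15a, named without a sequence here, had a log2 change of -0.15 ± 0.26 (edgeR adjusted p = 0.822).

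The largest gain by adjusted p was in mir-203, a microRNA best known from the differentiating layers of skin and other epithelia. Its level ran from 15.1 to 28.6 CPM (counts scaled to library size, with TMM factors) in the older libraries, with a median of 24.7, and from 9.28 to 16.03 CPM with a median of 12.4 in the younger. At 24 months the 5 libraries held 24.8, 24.8, 24.3, 15.1 and 24.7 CPM, and at 30 months 25.4, 22.4, 28.6, 20.7 and 27.7 CPM. At 9 months they held 10.6, 12.1, 13.98, 13.1 and 9.88 CPM, and at 15 months 9.28, 16.03, 13.5, 12.6 and 11.8 CPM. In all, 9 of the 10 older libraries lay above all the younger ones, and 24 months replicate 4 was the exception. The means were 23.9 ± 3.80 against 12.3 ± 2.03 CPM (SD, n = 10 each), with a fitted fold of 1.94 and log2 change of 0.96 ± 0.11 (SE, edgeR adjusted p = 6.99e-06). No other gene of GENCODE vM21 lies across the hairpin.

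The largest loss was in mir-296, which lies in the imprinted Gnas region with mir-298. It ran from 2.92 to 12.6 CPM in the older libraries, median 6.56, and from 12.6 to 25.98 CPM in the younger, median 16.3. At 24 months the libraries held 8.46, 9.55, 12.6, 2.92 and 5.92 CPM, and at 30 months 6.81, 5.48, 6.31, 7.07 and 6.09 CPM. At 9 months they held 19.3, 17.1, 12.8, 22.5 and 25.6 CPM, and at 15 months 25.98, 13.9, 12.6, 15.3 and 15.4 CPM. No older library reached a younger one, but the highest older library, at 12.61 CPM, and the lowest younger one, at 12.62 CPM, nearly met. It was the only tested hairpin whose pools did not overlap, which is 0.344% of the 291. The means were 7.12 ± 2.61 against 18.1 ± 5.06 CPM (SD, n = 10 each), with a fitted log2 change of -1.32 ± 0.20 (SE, edgeR adjusted p = 1.80e-04). Its neighbour mir-298, 379 bases away on the same strand, had a log2 change of -0.69 ± 0.28 and did not pass the test (edgeR adjusted p = 0.158). The level of mir-298 was 1.26 ± 0.951 against 1.92 ± 0.639 CPM, from 461 counts over all 20 libraries. In edgeR, mir-298 passed without 30 months replicate 3, and without the 2 shallowest libraries.

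**Figure D1:**
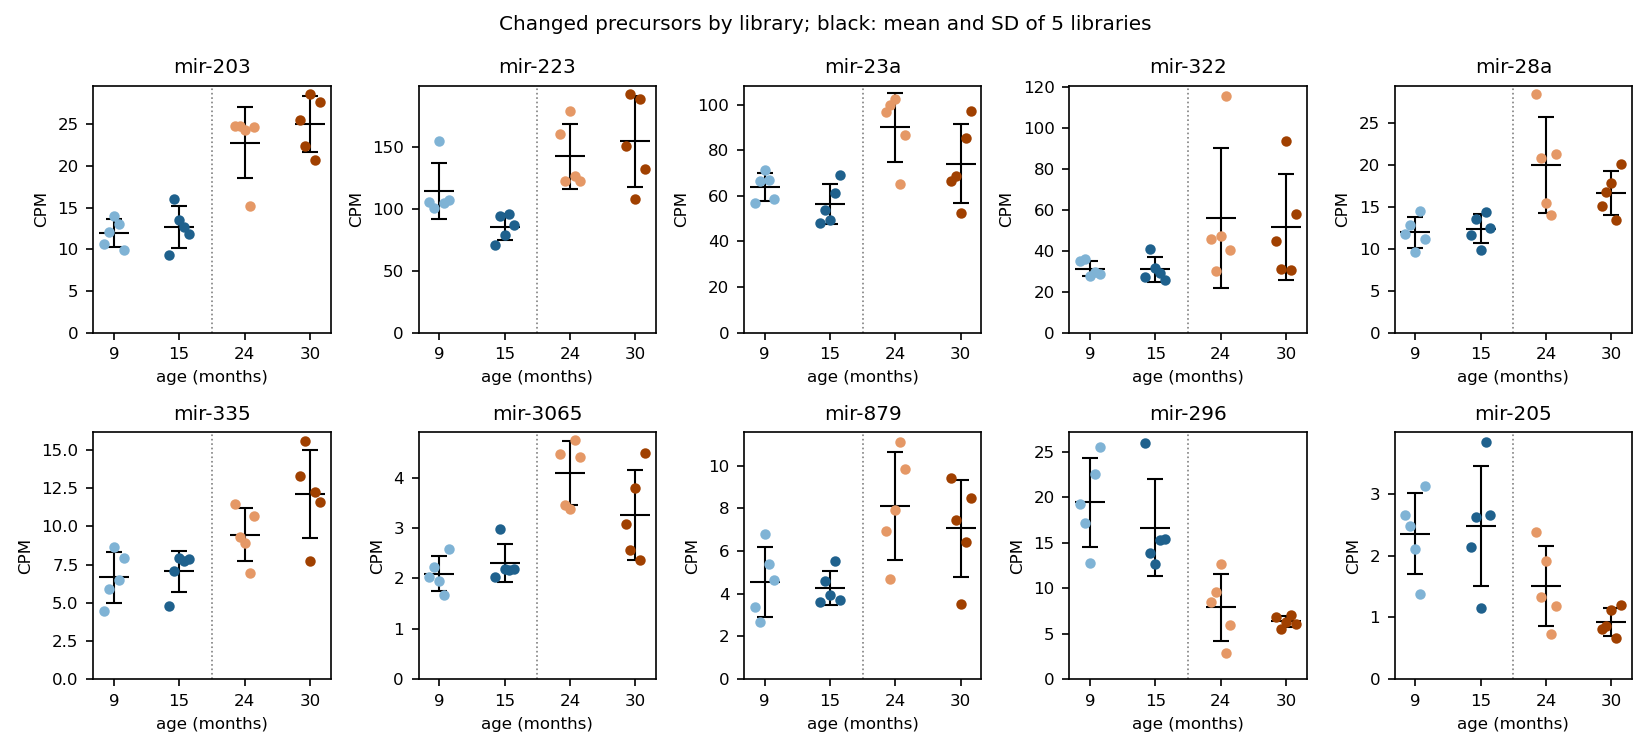
Levels of the 10 changed hairpins in each library, in CPM on TMM-scaled library sizes against age in months, with 1 point per library and the mean and SD of the 5 libraries of each age in black. The dotted line divides the younger from the older pool. In mir-296 the pools do not overlap, and in mir-203 a single older library falls among the younger ones.

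Hairpins of the neutrophil and monocyte lineage were next. Hairpin mir-223, which restrains neutrophil production and activation, ran from 108 to 194 CPM in the older libraries, median 142, and from 71.2 to 155 CPM in the younger, median 98.4. Of 291 tested hairpins, 23 had all 10 older libraries past the younger median on one side, mir-223 among them. Its older libraries all lay above that median, while 9 months replicate 3, at 155 CPM, lay among the older ones. The means were 149 ± 30.8 against 100.2 ± 22.7 CPM (SD, n = 10 each), a log2 change of 0.57 ± 0.13 (SE, edgeR adjusted p = 0.0166). It lies in an exon of the noncoding gene F630028O10Rik on the X chromosome.

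Hairpin mir-23a opens a cluster with mir-27a and mir-24-2 that is active in myeloid cells and favours their development over that of B cells. It ran from 52.7 to 102 CPM in the older libraries, median 86.1, and from 48.0 to 71.4 CPM in the younger, median 59.9. The count of older libraries above all younger ones was 6. The means were 82.2 ± 17.6 against 60.2 ± 8.22 CPM (SD, n = 10 each), a log2 change of 0.45 ± 0.12 (SE, edgeR adjusted p = 0.0374). Its call was lost in 11 of the 20 fits that left out 1 library, at an adjusted p of up to 0.0854. The 2 cluster mates did not pass the test, though both passed under scaling by library totals, mir-24-2 also with DESeq2 and mir-27a also without the 30 month libraries. Hairpin mir-27a, 80 bases away, had a log2 change of 0.42 ± 0.16 (edgeR adjusted p = 0.145) and mir-24-2, 223 bases away, one of 0.20 ± 0.07 (edgeR adjusted p = 0.119). Both had a higher mean in the older libraries in 6 of 6 sequencing lanes. Of 291 tested hairpins, 43 (14.8%) differed in one direction in all 6. Hairpin mir-24-2 overlaps mir-3074-2 on the opposite strand, and the 2 held 12299 and 12064 counts over the 20 libraries. Whether counting used strand is not stated, and without it reads of these 2 cannot be told apart.

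On the myeloid list, 2 of the 9 tested hairpins rose, against 2.75% of all tested hairpins, and none fell. The 2, mir-223 and mir-23a, were among those that earlier results of these data singled out, and the list was chosen with those results known. So this share is no separate support for them. Members mir-23a, mir-27a and mir-24-2 belong to 1 cluster. The summed level of the list had a median of 16392 CPM in the older libraries and 17687 CPM in the younger. The list's median log2 change was 0.27, beside -0.02 over all 291. Of its members, 7 had a change above 0, as did 135 of all 291 tested hairpins. The abundant member mir-142a, found across white cells, had a log2 change of -0.09 ± 0.14 and 8316 ± 2001 against 8874 ± 2036 CPM (SD, n = 10 each). Its counts nearly equalled those of its antisense partner mir-142b. Members mir-125a (0.39 ± 0.17), mir-130a (0.27 ± 0.17) and mir-146b (0.23 ± 0.16) did not pass (log2 change ± SE, edgeR adjusted p from 0.186 to 0.432). Of these, mir-125a passed in edgeR with library totals and without the 2 shallowest libraries.

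Hairpin mir-322, the mouse counterpart of human miR-424 and a repressor of cell cycle genes, ran from 30.2 to 116 CPM in the older libraries, median 45.4, and from 25.7 to 40.9 CPM in the younger, median 29.4. The means were 53.8 ± 28.8 against 31.1 ± 4.70 CPM (SD, n = 10 each), a log2 change of 0.78 ± 0.22 (SE, edgeR adjusted p = 0.0473). The 2 highest values, 116 and 93.7 CPM, belong to the 2 libraries with the lowest total counts, 24 months replicate 4 and 30 months replicate 3. The highest of the other 18 libraries was 57.9 CPM. Without those 2 libraries the log2 change was 0.40 and the adjusted p 0.0785 (edgeR), and the call was lost in 15 of the 20 fits that left out 1 library. With all 20 libraries thinned to the total of the shallowest, the log2 change was 0.80 (edgeR adjusted p = 0.0437). Of its X-linked cluster, mir-351 had a log2 change of 0.44 ± 0.14 (edgeR adjusted p = 0.116) and 68.4 ± 10.6 against 50.3 ± 13.0 CPM (SD, n = 10 each). All 10 older libraries of mir-351 lay above the younger median. Of 291 tested hairpins, 23 had all 10 older libraries past the younger median on one side, 7 of them among the changed hairpins. Cluster members mir-542 (0.39 ± 0.20) and mir-450b (0.12 ± 0.30) did not pass (edgeR adjusted p = 0.290 and 0.871), and mir-503, with 167 counts over 20 libraries, was not tested.

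The other 4 hairpins that rose were of lower abundance. Hairpin mir-335 lies in an intron of Mest, an imprinted gene expressed from the paternal copy. It ran from 6.93 to 15.6 CPM in the older libraries, median 11.1, and from 4.45 to 8.67 CPM in the younger, median 7.39. In 8 older libraries it lay above all younger ones, for means of 10.8 ± 2.64 against 6.87 ± 1.44 CPM (SD, n = 10 each) and a log2 change of 0.66 ± 0.15 (SE, edgeR adjusted p = 0.0130).

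Hairpin mir-28a lies in an intron of Lpp, which encodes a protein of cell adhesion sites. It ran from 13.4 to 28.5 CPM in the older libraries, median 17.3, and from 9.61 to 14.5 CPM in the younger, median 12.1. In 8 older libraries it lay above all younger ones. The log2 change was 0.59 ± 0.13 (SE, edgeR adjusted p = 0.00885), from 18.3 ± 4.56 against 12.2 ± 1.71 CPM (SD, n = 10 each).

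Hairpin mir-3065 ran from 2.36 to 4.74 CPM in the older libraries, median 3.62, and from 1.67 to 2.98 CPM in the younger, median 2.17. It rose by 0.73 ± 0.13 on the log2 scale (SE, edgeR adjusted p = 0.00203), and 8 older libraries lay above all younger ones. It overlaps mir-338, a hairpin on the opposite strand in an intron of Aatk. Whether counting used strand is not stated in the labels, and without it reads of the pair cannot be told apart. Some other opposite-strand pairs, such as mir-142a and mir-142b or mir-30e and mir-30f, held near-identical counts, while mir-3065 and mir-338 did not. The counts of mir-3065 may thus hold reads of mir-338, which was at 3.12 ± 0.963 against 2.42 ± 0.501 CPM (SD, n = 10 each). The log2 change of mir-338 was 0.39 ± 0.17 (edgeR adjusted p = 0.178). Hairpin mir-879, in an intron of 9330182L06Rik, ran from 3.51 to 11.1 CPM in the older libraries, median 7.69, and from 2.67 to 6.80 CPM in the younger, median 4.27. In 7 older libraries it lay above all younger ones, and the log2 change was 0.78 ± 0.19 (SE, edgeR adjusted p = 0.0173).

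The second hairpin that fell was mir-205, an epithelial microRNA that lies in an exon of the noncoding gene 4631405K08Rik. It was rare, from 0.660 to 2.39 CPM in the older libraries, median 1.15, and from 1.15 to 3.84 CPM in the younger, median 2.56. Of 291 tested hairpins, 23 had all 10 older libraries past the younger median on one side. In mir-205 all 10 lay below it. The log2 change was -0.89 ± 0.24 (SE, edgeR adjusted p = 0.0374). Its call was lost in 13 of the 20 fits that left out 1 library, at an adjusted p of up to 0.0739, and under scaling by library totals (adjusted p = 0.0777). The floor of 3 counts, on library totals, corresponds to 0.614 CPM in the shallowest library, 24 months replicate 4. There mir-205 was at 0.729 CPM on the TMM-scaled size (factor 1.12), so the 2 values are not on 1 scale. The lowest value, 0.660 CPM, came from another older library.

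Epithelial hairpins did not move one way. One of 4 tested members rose (mir-203) and 1 fell (mir-205), against 2.75% and 0.687% of all tested hairpins, while mir-141 (-0.50 ± 0.34) and mir-200c (-0.35 ± 0.15), of the mir-200 family that keeps cells epithelial, did not pass (log2 change ± SE, edgeR adjusted p = 0.432 and 0.180). The summed level of the 7 members in the table ran from 34.2 to 117 CPM in the older libraries and from 50.9 to 146 CPM in the younger. Members mir-200a, mir-200b and mir-429 held at most 52, 14 and 17 counts in a library. The part of epithelial cells in the values of mir-203 and mir-205 was not tested.

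**Figure D2:**
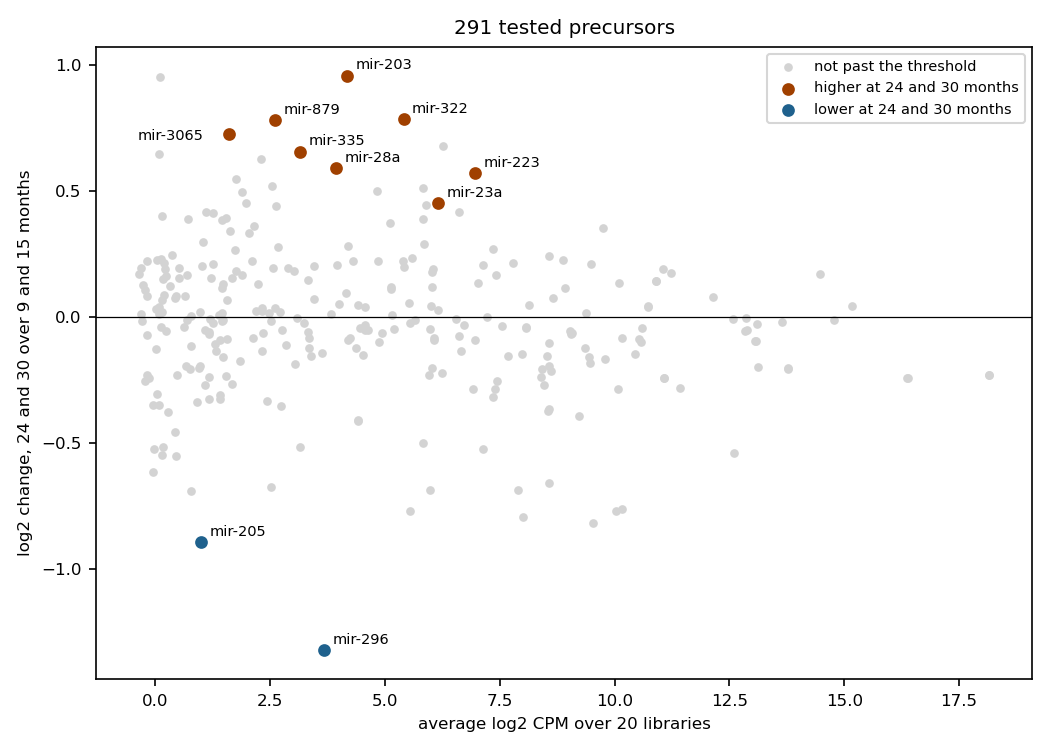
Log2 change of each of the 291 tested hairpins, older over younger pool, against its average log2 CPM over the 20 libraries. The 8 hairpins that rose and the 2 that fell are named, and all 10 lie below the most abundant hairpins, none of which passed the test.

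The hairpins that fill most of a blood library did not pass the test. The erythroid list holds 12 tested hairpins, mir-451a, mir-144 and mir-486a among them, but also mir-16-1, mir-22 and mir-25. It took 85.8% ± 2.03 of the counts in the older libraries and 86.7% ± 2.04 in the younger (SD, n = 10 each). This share is therefore not that of red cell markers alone. Reads of mir-486a and mir-486b, and of mir-451a and mir-451b, appear at near-equal counts in both members of each pair, so these shares may hold a read more than once. None of the 12 changed, and their median log2 change was -0.20, beside -0.02 over all tested. Hairpin mir-451a, which drives red cell maturation, held 77908 ± 11676 against 92174 ± 12031 CPM (SD, n = 10 each), a log2 change of -0.24 ± 0.09 (SE, edgeR adjusted p = 0.125). Hairpin mir-486a, in an intron of the red cell gene Ank1, had a log2 change of -0.23 ± 0.12 (edgeR adjusted p = 0.290). Of the others among the most abundant, mir-22 (0.04 ± 0.09), mir-92a-1 (-0.01 ± 0.07) and mir-25 (0.17 ± 0.08) lay within 0.2 of 0 on the log2 scale (edgeR adjusted p = 0.862, 0.966 and 0.209). Under scaling by library totals mir-25 passed, with a log2 change of 0.35 (edgeR adjusted p = 0.0236).

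Hairpin mir-144, made from the same transcript as mir-451a, had a larger log2 change that did not pass, -0.82 ± 0.28 (SE, edgeR adjusted p = 0.119). It ran from 142 to 896 CPM in the older libraries, median 505, and from 433 to 1370 CPM in the younger, median 1026. The let-7 family, which represses growth and stemness genes, had 12 of its 13 tested members below 0 and a median log2 change of -0.37, but none passed. Over all tested hairpins 156 of 291 lay below 0, and under scaling by library totals the let-7 median was -0.18. The pairs let-7a-1 and let-7a-2, let-7c-1 and let-7c-2, and let-7f-1 and let-7f-2 held near-identical counts, so they do not count as separate members. Its lowest was mir-98, which lies with let-7f-2 in an intron of Huwe1 and carries the let-7 seed, as these lines show.
let-7f-5p (let-7f-2, chrX:151912353-151912374, plus strand): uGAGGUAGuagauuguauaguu
miR-98-5p (chrX:151913229-151913250, plus strand): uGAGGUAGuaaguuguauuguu

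Hairpin mir-98 ran from 17.7 to 53.9 CPM in the older libraries, median 32.0, and from 33.0 to 115 CPM in the younger, median 49.8. Its log2 change was -0.77 ± 0.25 (SE, edgeR adjusted p = 0.116), and that of let-7f-1 was -0.77 ± 0.28 (edgeR adjusted p = 0.119). Hairpin let-7f-1 ran from 307 to 1170 CPM in the older libraries and from 517 to 2053 CPM in the younger. The same 3 older libraries, 24 months replicate 2 and 30 months replicates 2 and 4, were among the 5 lowest of 20 for let-7f-1, let-7a-2, let-7i, mir-98, mir-144, mir-101a and mir-26b. The 5 lowest libraries of let-7f-1 also included 9 months replicate 3 and 15 months replicate 5. Of these, mir-98, mir-144 and let-7f-1 passed the test under some other settings, while mir-101a and mir-26b passed under none of 37. With DESeq2 the adjusted p was 0.0200 for mir-98, 0.0245 for mir-144 and 0.0428 for let-7f-1. With upper quartile factors in edgeR it was 0.0330, 0.0284 and 0.0394.

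**Figure D3:**
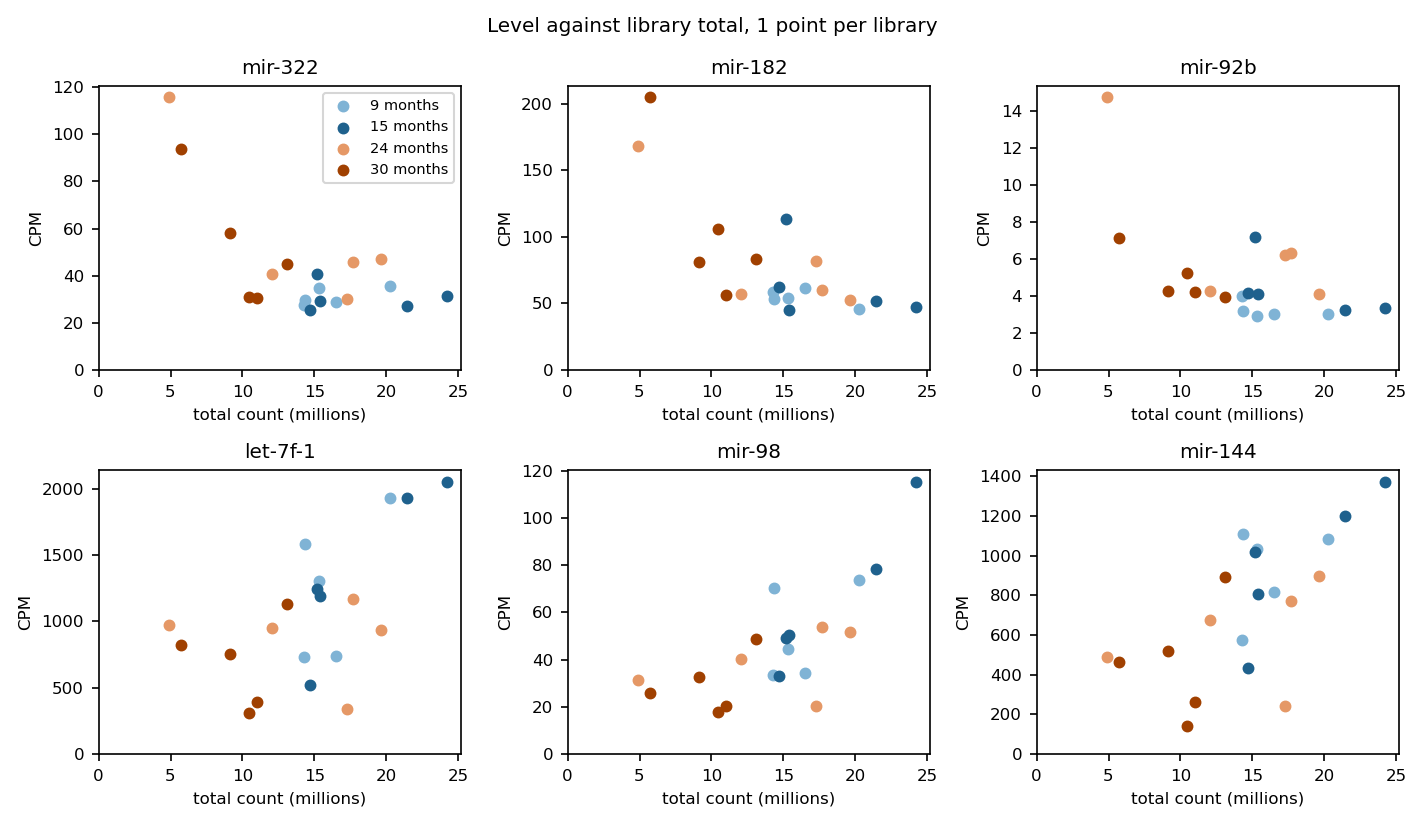
Level of 6 hairpins in each library, in CPM, against the library's total count in M (mega) counts, with 1 point per library coloured by age. For mir-322, mir-182 and mir-92b the 2 shallowest libraries, both older, stand at or near the top, and for let-7f-1, mir-98 and mir-144 the highest values belong to deep younger libraries.

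Depth differed between the pools. The total count was 12.1 ± 4.96 M in the older libraries (4.88 to 19.7 M, median 11.5) and 17.2 ± 3.51 M in the younger (14.3 to 24.3 M, median 15.4; SD, n = 10 each). The difference of -5.07 M had a 2-sided permutation p of 0.0172 over 100000 resamples. The 2 older ages were not equally shallow. Libraries of 30 months averaged 9.89 M (SD 2.71) and ran from 5.75 to 13.1 M, so none was as deep as any younger library. Those of 24 months averaged 14.3 M (SD 5.98), and their range of 4.88 to 19.7 M overlapped that of the younger pool. Besides mir-322, hairpin mir-182, of a cluster active in activated lymphocytes and sensory cells, was highest in the 2 shallowest libraries, at 168 CPM in 24 months replicate 4 and 205 CPM in 30 months replicate 3. The other 18 libraries reached at most 113 CPM. Its log2 change was 0.68 ± 0.25 (edgeR adjusted p = 0.119). Hairpins mir-183 (6.75 and 9.54 CPM, others at most 4.98) and mir-92b (14.8 and 7.15 CPM, others at most 7.22), chosen after their values were seen, did likewise, mir-92b with 1 younger library between. Of the 10 changed hairpins, 8 kept their call without these 2 libraries, and mir-205 and mir-322 lost it. The number changed was then 16, 13 higher and 3 lower. With all libraries thinned to 1 depth, 7 of the 10 kept their calls, mir-203 (0.92) and mir-296 (-1.28) with the smallest adjusted p (1.64e-05 and 3.16e-04, edgeR). Then mir-23a (0.46, adjusted p = 0.0564) and mir-879 (0.46, adjusted p = 0.225) lost theirs, and mir-205 fell under the filter.

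No hairpin differed between the 2 ages within a pool. Between 30 and 24 months the count was 0 of 291 (0%) at an adjusted p under 0.05 and 17 at an unadjusted p under 0.05, and between 15 and 9 months it was 0 (0%) and 1 (edgeR). DESeq2 and limma-voom also gave 0 for both, with 12 and 4 (DESeq2) and 19 and 1 (limma-voom) at an unadjusted p under 0.05. The smallest adjusted p was 0.595 and 0.999. In the comparison of pools 60 hairpins (20.6%) had an unadjusted p under 0.05, 35 higher and 25 lower. With 5 libraries an age and not 10, these fits have less power, so the counts do not show that the ages were alike. Among the changed hairpins, mir-205 had the largest difference between 30 and 24 months, -0.80 ± 0.35 on the log2 scale, from 0.929 ± 0.225 against 1.51 ± 0.648 CPM. Hairpin mir-223 had the largest between 15 and 9 months, -0.43 ± 0.17, from 85.5 ± 10.3 against 115 ± 22.6 CPM (SD, n = 5 each).

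Each older age set against each younger age gives 4 differences per hairpin, which share libraries and are listed without a test. For mir-203 the log2 changes were 0.94 and 0.85 at 24 months over 9 and 15 months, and 1.07 and 0.98 at 30 months. For mir-296 they were -1.27 and -1.05 at 24 months and -1.61 and -1.39 at 30 months. For mir-223 they were 0.31 and 0.74 at 24 months and 0.43 and 0.86 at 30 months, smaller against 9 months than against 15. For mir-23a they were 0.49 and 0.68 at 24 months and 0.21 and 0.40 at 30 months. For mir-335 they were 0.51 and 0.43 at 24 months and 0.86 and 0.78 at 30 months. For mir-28a they were 0.74 and 0.70 at 24 months and 0.47 and 0.43 at 30 months. For mir-205 they were -0.55 and -0.61 at 24 months and -1.36 and -1.41 at 30 months. The remaining 3, mir-322, mir-3065 and mir-879, had all 4 differences between 0.48 and 0.95.

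**Figure D4:**
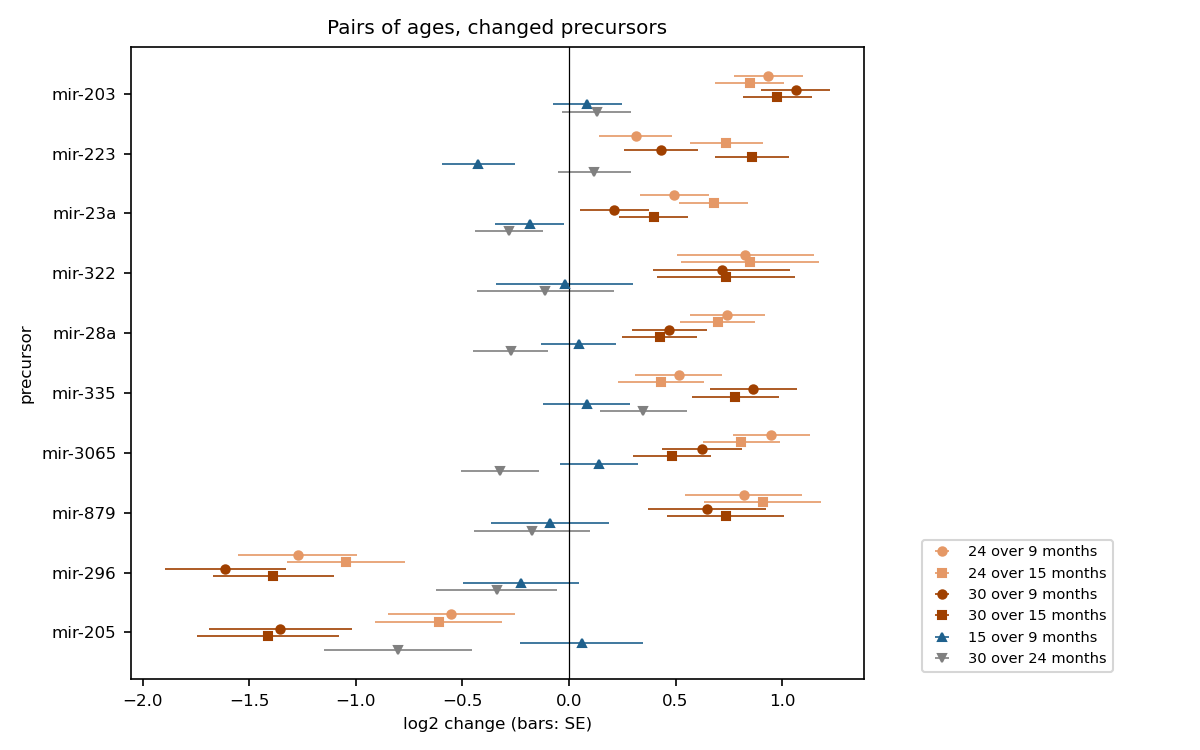
Log2 change of the 10 changed hairpins for 6 pairs of ages, with bars of 1 SE. The 4 pairs that set an older against a younger age lie on one side of 0 for each hairpin, and the pairs within a pool, 15 over 9 and 30 over 24 months, lie nearer to 0 in mir-203 and mir-296.

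Sequencing lanes 3 to 8, read from the column names, each held libraries of both pools. All 10 changed hairpins differed in the same direction in 6 of 6 lanes, as did 43 of all 291 tested (14.8%). For mir-203 the older minus younger difference in mean log2 CPM ran from 0.24 to 1.52 over lanes, and for mir-296 from -2.32 to -0.37. With lane as a term in the edgeR fit, the log2 changes were 0.96 and -1.42. Then 11 hairpins changed, 9 of the 10 among them, and mir-23a had an adjusted p of 0.0591. An index sequence in the column names differs in every library and follows age except in 2 libraries of 30 months, so index and age cannot be told apart.

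Lists of other cell types and families are described by their counts, and were chosen with earlier results of these data known. On the lymphoid list none of 9 changed, with a median log2 change of 0.02, and mir-150, the main lymphocyte microRNA, had one of -0.16 ± 0.34. On the platelet and endothelial list none of 4 tested changed (median -0.27), with mir-126a, an endothelial and platelet microRNA, at -0.52 ± 0.30 and mir-222 at 0.21 ± 0.07. Hairpin mir-222 passed with DESeq2 (adjusted p = 0.0191) and, in edgeR, with library totals (adjusted p = 0.0282). On the inflammation list none of 6 changed (median 0.25), with mir-155, induced in activated white cells, at 0.50 ± 0.30 and mir-146a, a brake on innate signalling, at 0.37 ± 0.29. With library totals in edgeR, its members mir-132 and mir-212 passed (adjusted p = 0.0321 for mir-212). So did mir-128-1 and mir-128-2 of the brain list (adjusted p = 0.0167 for mir-128-2). None of 4 liver and gut, 2 muscle, 5 brain and 2 smooth muscle hairpins changed. Some of their defining markers were near 0, with at most 24 counts of the liver microRNA mir-122, 1 of the muscle microRNA mir-1a-1 and 4 of the brain microRNA mir-137 in any library. Others were not. The muscle hairpin mir-133a-1 held 19 to 1279 counts, highest in 15 months replicate 5, and mir-143, of smooth muscle, held 178 to 1946. The liver and gut hairpin mir-192 held 26667 counts or more in every library.

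Among families and clusters, none of 6 hairpins of mir-17-92, which promotes growth of blood precursors, changed (median -0.14). None of 2 tested of the cluster of mir-183, mir-96 and mir-182 (median 0.56) and of mir-101 (median -0.74) changed. Over all 291 tested hairpins 2.75% rose and 135 lay above 0. Of 6 in the mir-23/27/24 clusters 1 rose and all 6 lay above 0 (median 0.20). Member mir-24-1 held counts near-identical to those of its antisense partner mir-3074-1. Among the 8 tested Dlk1-Dio3 hairpins of the imprinted cluster on chromosome 12 none changed (median -0.05). Among 7 tested Sfmbt2-type hairpins, a rodent cluster in an intron of Sfmbt2, none changed and all 7 lay above 0 (median 0.22). Members mir-669a-1, mir-669a-5, mir-669a-7 and mir-669a-11 are named as copies of 1 hairpin, so the 7 do not count as separate members. In edgeR, mir-467d of this list passed with upper quartile factors (adjusted p = 0.0310) and without the 30 month libraries (adjusted p = 0.0473). Its member mir-466f-3 passed with library totals. One of 8 tested mir-15/16 hairpins, mir-322, rose (median -0.15), against 2.75% of all tested hairpins. Scaling by library totals turned the medians of 9 of 27 lists from below to above 0, among them mir-17-92 (to 0.05), mir-15/16 (to 0.03), Dlk1-Dio3 (to 0.12) and mir-30 (from -0.05 to 0.13).

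**Figure D5:**
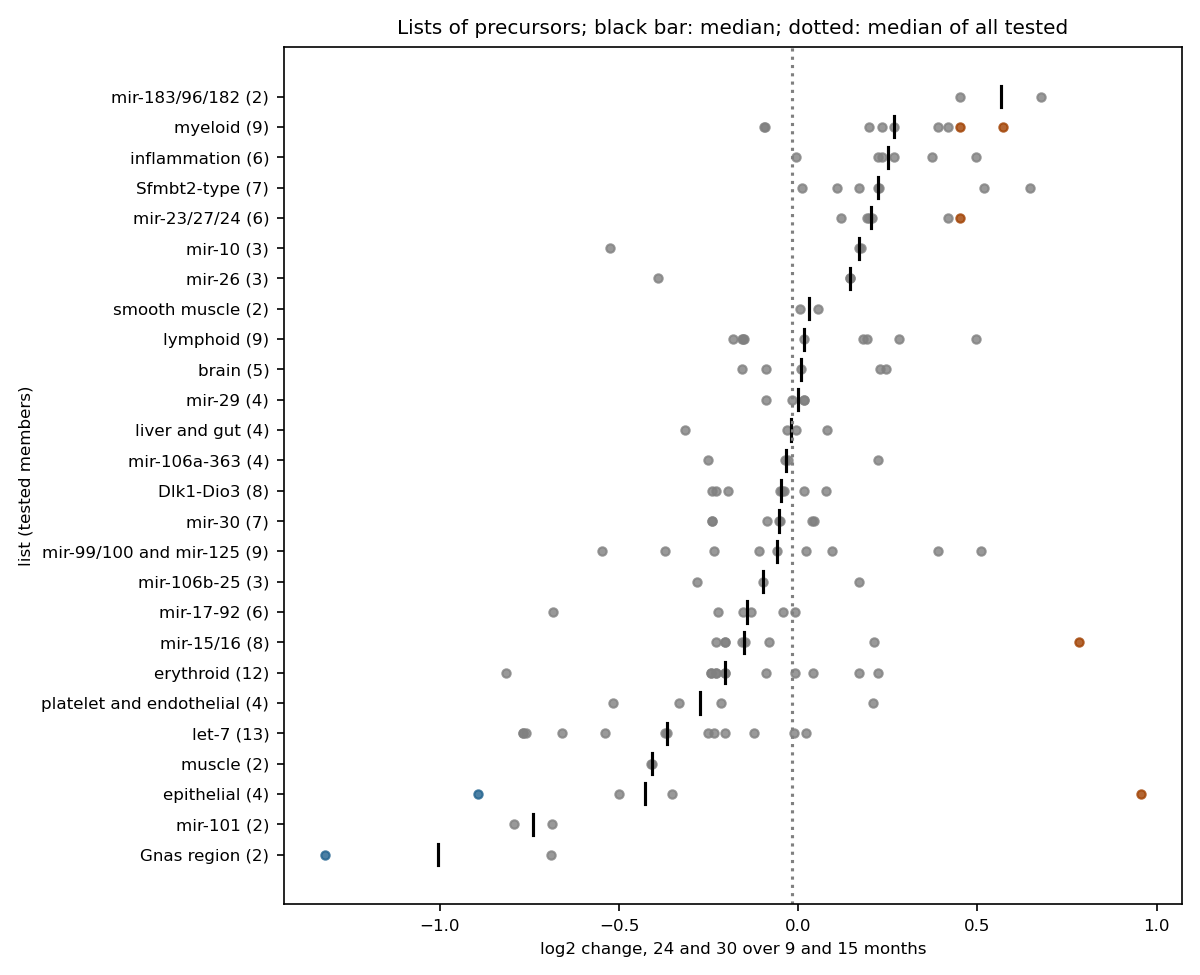
Log2 change, older over younger pool, of the tested members of each list, with the number tested in brackets, the list's median as a black bar and the median of all 291 tested hairpins as a dotted line. Red points rose, blue points fell and grey points did not pass the test, so most lists hold grey points alone.

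The split of calls by direction moved with the scaling. TMM factors gave 8 higher and 2 lower, scaling by library totals 31 and 1, and upper quartile factors 8 and 6. The median log2 change over all tested hairpins was 0.16 with library totals and 0.10 with upper quartile factors, beside -0.02 with TMM. The directions of all 10 changed hairpins were the same under each of these scalings.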

How the data were processed

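Small RNA of blood was counted in 20 of the 25 libraries. The authors deposited 1 table of raw counts per hairpin, whole numbers whose totals differ between libraries. Sequencing data passed through bcl2fastq 1.8.4, Trimmomatic 0.36 and SAMtools 1.3.1-9, named without roles in the submitters' processing notes. The aligner, counter, genome build, strand setting and the rule for reads that fit several hairpins are not stated in the labels. The table's counts were tested with edgeR 4.0.16 in R 4.3.3 (TMM factors, filterByExpr by pool, robust quasi-likelihood fit), 24 and 30 against 9 and 15 months, 2-sided, with Benjamini-Hochberg adjustment over 291 hairpins and a threshold of 0.05. In each library the tested hairpins took 99.989% or more of all counts, and the common biological coefficient of variation was 28.8%. A further fit with 1 coefficient per age gave the pairs of ages. CPM are on TMM-scaled library sizes. SE was taken from the log2 change and the F statistic.

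No 2 of 40 same-age pairs of libraries agreed within sampling noise (smallest chi-square per degree of freedom 161). Replicate numbers follow the order of the samples. Counts stayed within 0.2 log2 units of each other in all libraries for 14 groups of hairpins with means of 20 counts or more. Floors of 3 counts run from 0.124 to 0.614 CPM on library totals and cover counting error only, since no molecular identifiers are named. The pools, lists and named hairpins were chosen with earlier results of these data known. Named were the changed hairpins, the 10 with the smallest p in each direction at a mean of at least 10 CPM in a pool, the 8 most abundant, the member of each list with the smallest p, and hairpins that earlier results singled out. The most abundant member of each list, also in that rule, is printed only where it helps, and other named list or cluster members were picked with their values already seen. The script was tested on simulated data. Alternatives were other scalings, filters, tools, a lane term, thinned libraries, and left-out libraries and ages. DESeq2 1.42.0 and limma 3.58.1 served as alternatives. Sequences are from RefSeq and host genes from GENCODE vM21, both on GRCm38.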

Additional observations from a re-analysis of the deposited data

Results flagged for a closer look

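For the 48 named hairpins and the total count, each age's 5 libraries were searched for a single library far from its group, on the log2 CPM scale for hairpins. A gap to the nearest library above 0.710 of the group's range marked 18 of 196 groups. Chance marks about 1 in 20 such groups, and the groups share libraries.

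Among the changed hairpins, mir-203 in 24 months replicate 4 was low at 15.1 CPM (next 24.3), and this is the older library that overlaps the younger ones. In 9 months replicate 3, mir-223 was high at 155 CPM (next 108). In 15 months replicate 1, mir-296 was high at 25.98 CPM (next 15.4) and mir-335 low at 4.76 CPM (next 7.04). In 15 months replicate 2, mir-3065 was high at 2.98 CPM (next 2.19).

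Among hairpins that did not pass the test, 24 months replicate 2 was low for let-7f-1 (342 CPM, next 936), let-7f-2 (382 CPM, next 1030) and mir-16-1 (8165 CPM, next 14865). The shallow 24 months replicate 4 was low for mir-3074-2 (38.1 CPM) and high for mir-10b (329 CPM, next 108). The shallow 30 months replicate 3 was low for mir-99b (24.3 CPM, next 63.6) and mir-128-2 (298 CPM), and 9 months replicate 1 was low for mir-128-2 as well (292 CPM).

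Hairpin mir-10a was high in 9 months replicate 3 (2495 CPM) and in 15 months replicate 3 (4147 CPM, next 2203), and mir-10b in 15 months replicate 2 (436 CPM, next 153). In 15 months replicate 5, mir-99b was high (80.4 CPM, next 44.3) and mir-29c low (7.20 CPM, next 18.9). In 3 cases, leaving out the library brought a call for the hairpin in which it stood apart. Without 24 months replicate 4, mir-10b passed the test with a log2 change of -0.85 (edgeR adjusted p = 0.0339). Without 30 months replicate 3, mir-99b passed with 0.61 (edgeR adjusted p = 0.0245). Without 15 months replicate 3, mir-10a passed with 0.35 (edgeR adjusted p = 0.0432).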

How the results depend on the processing

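The calls of mir-203 and mir-296 were kept under all 37 alternatives. The other calls were lost under 22 of 37 (mir-322), 21 of 37 (mir-23a), 19 of 35 (mir-205), 4 of 37 (mir-28a, mir-335, mir-223), 4 of 36 (mir-879) and 2 of 36 (mir-3065), and none reversed. The number of changed hairpins, 10, was 32 with library totals, 6 with no filter (5 of the 10 kept among 855 tested), 18 with DESeq2 (11 higher, 7 lower), 3 without 9 months, 3 without 15 months, 4 without 24 months and, chosen after seeing the data, 16 without the 2 shallowest libraries. Leaving out 1 library gave 7 to 13. Leaving out an age leaves fewer libraries, and the cause of the other moves was not tested. Within pools 0 changed under every alternative run. The difference in total counts ran from -5.91 to -4.27 M without 1 library.

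In edgeR, the call of mir-205 was kept without 9 months replicates 3 and 4, 15 months replicates 1 and 3, 24 months replicates 1 and 3 or 30 months replicate 3, and lost without each other single library (adjusted p 0.0512 to 0.0739). That of mir-23a was lost without 9 months replicates 1 and 5, 15 months replicates 1, 2 and 4, 24 months replicates 1, 2, 3 and 5, or 30 months replicates 4 and 5, each left out alone (0.0541 to 0.0854). That of mir-322 was kept without 15 months replicates 2 and 3, 24 months replicate 2 or 30 months replicates 2 and 4 and lost without each other one (0.0539 to 0.0909).

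Of the named hairpins, 5 changed sign, none of them past the threshold in either direction. Hairpin mir-29c, at -0.09 on the log2 scale, was 0.087 with library totals, 0.023 with upper quartile factors, 0.0089 with lane in the fit and 6.0e-05 in thinned libraries. Hairpin mir-92a-1, at -0.01, was 0.16 with library totals, 0.127 with upper quartile factors, 0.032 with the 10 CPM filter, 0.0079 thinned, 0.012, 0.0031, 0.0022 and 0.027 without 9, 15, 24 and 30 months, and 0.023 without the 2 shallowest libraries. Hairpin mir-143, at 0.05, was -0.027 with no filter, -0.013 with limma-voom and -0.26 without 24 months. Hairpin mir-22, at 0.04, was -0.029 with no filter, -0.013 without 9 months and -0.067 without the 2 shallowest. Hairpin mir-133a-2, at -0.41, was 0.19 without 15 months. Without 1 library these 5 ran from -0.185 to 0.00191 (mir-29c), -0.0509 to 0.00846 (mir-92a-1), -0.0814 to 0.136 (mir-143), -0.0324 to 0.0753 (mir-22), -0.672 to 0.148 (mir-133a-2). No paired analysis was possible because replicate numbers only name the samples.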

Other observations

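Among the further hairpins described here, mir-320 and mir-330 came near the threshold in the main fit, and the rest lay further from it. Hairpin mir-320 held 322 ± 33.2 CPM in the older and 387 ± 36.4 CPM in the younger libraries (SD, n = 10 each), a log2 change of -0.27 ± 0.08 (SE, edgeR adjusted p = 0.0506). It passed in 4 of the 20 fits that left out 1 library and with DESeq2 (adjusted p = 0.0166). Hairpin mir-330, in an exon of Eml2, held 33.0 ± 9.00 against 23.4 ± 4.10 CPM, a log2 change of 0.50 ± 0.15 (edgeR adjusted p = 0.0637). With lane in the fit its adjusted p was 0.0430, and with DESeq2 0.0245. Hairpin mir-484 held 966 ± 136 against 1177 ± 159 CPM, a log2 change of -0.28 ± 0.09 (edgeR adjusted p = 0.116). All 10 of its older libraries lay below the younger median, and 23 of 291 tested hairpins had all 10 past it on one side.

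Hairpin mir-8114, in an exon of Glul, had a log2 change of -0.28 ± 0.10 (edgeR adjusted p = 0.119), with 109 ± 7.01 against 133 ± 27.6 CPM. Hairpin mir-222, known from platelets and endothelium, had one of 0.21 ± 0.07 (edgeR adjusted p = 0.119), with 150.1 ± 15.9 against 129.9 ± 8.03 CPM. Hairpin mir-99b had one of 0.51 ± 0.20 (edgeR adjusted p = 0.133). It passed in edgeR with library totals (adjusted p = 0.0199) and without the 2 shallowest libraries (adjusted p = 0.00334).

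Base composition went weakly with the change. Among 132 hairpins with a RefSeq sequence and a mean of at least 10 CPM, Pearson's r between the GC content of the hairpin and the log2 change was 0.14 and Spearman's rho 0.18, over hairpins that share the same 20 libraries. Among the 33 hairpins with the lowest GC content 25 lay below 0, with a median log2 change of -0.09. Among the 33 with the highest 16 did, with a median of 0.01.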
